A study of Homo sapiens with 6 samples.

Results

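The 10 genes described here, rows of the count table chosen by symbol from 29744 in all, report on signalling through the MAP kinase pathway. They are the ERK phosphatases DUSP4, DUSP5 and DUSP6, the Sprouty family inhibitors SPRY2, SPRY4 and SPRED1, the ETS transcription factors ETV1, ETV4 and ETV5, and the AP-1 subunit JUN. All 10 were found in the table and all 10 passed the filter on low counts. They were described in 3 cultured lines of gastric tumour cells with 2 RNA libraries each. HER2R is the derivative that resists a TCB (T cell bispecific antibody) to HER2, and its source is labelled MKN45-HER2. CEAR is the derivative that resists an antibody of the same kind to CEACAM5, labelled MKN45-CEAR, and MKN45 is the line labelled sensitive. HER2R and CEAR are called derivatives after these names. All lines grew in DMEM/F-12 with serum and none was treated. The labels give no clone structure and do not say whether HER2R was compared with its direct parent. Nor is it said that a line's libraries are from different cultures, and the p-values therefore cover only the spread between these libraries, which may be technical.

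In the MAP kinase pathway, growth factor receptors activate RAS, which starts a chain of the kinases RAF, MEK and ERK. Active ERK switches on genes whose products shut the pathway down again: DUSP proteins remove phosphate from ERK, and Sprouty and SPRED proteins act further up, between the receptor, RAS and RAF. ERK also acts through ETS factors such as ETV1, ETV4 and ETV5, while JUN is a subunit of the dimeric factor AP-1 and is phosphorylated by the related kinase JNK. Gastric and other epithelial tumours often depend on receptor kinases upstream of this pathway, and messenger levels of these feedback genes are commonly used as a readout of ERK output.

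The 10 genes did not move as one group. In HER2R, set against MKN45, DUSP4, DUSP5 and JUN rose and ETV1 fell, while DUSP6, SPRY2 and ETV5 had log2 fold changes between -0.01 and 0.13 and did not pass the test. SPRY4 (0.64), SPRED1 (0.56) and ETV4 (0.56) did not pass either. They passed as higher in an alternative fit with library number as a term, which called 33.7% of all tested genes. In the main fit, 8 of the 10 log2 fold changes were positive and 2 negative. In CEAR, set against MKN45, JUN rose and SPRY2 fell, and the other 8 did not pass. Between the derivatives, DUSP4, DUSP5, SPRY2 and SPRY4 were higher in HER2R than in CEAR. A gene is called where the quasi-likelihood p of edgeR, adjusted by Benjamini and Hochberg's method over the 14958 genes tested, is under 0.05, and this value is written as edgeR adjusted p. A range of adjusted p beside a result covers all 14 alternative fits, DESeq2 and limma-voom included, so its low end is often a DESeq2 value. In bulk RNA, fewer cells of a type and less RNA per cell cannot be told apart.

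**Figure D1:**
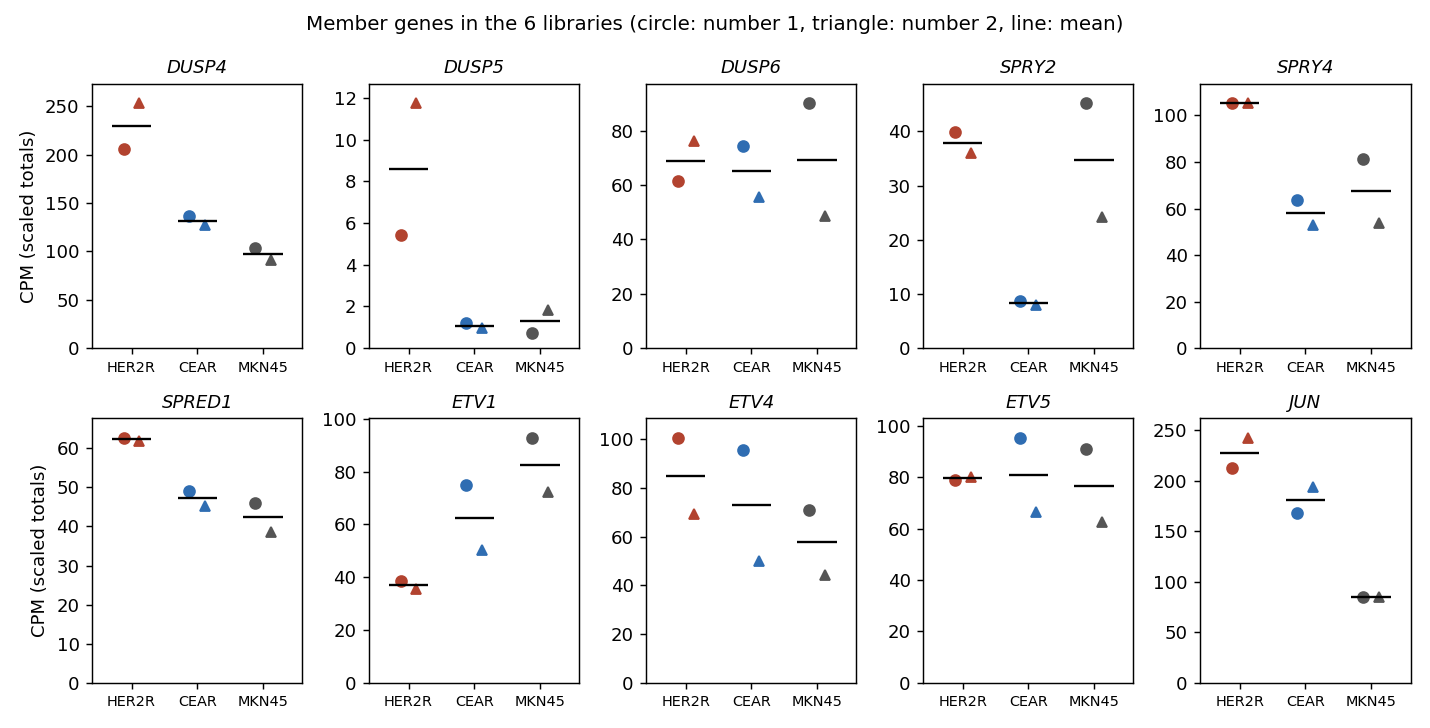
Level of each of the 10 genes in each library, in CPM (on scaled library totals, vertical axis from 0), for HER2R, CEAR and MKN45 from left to right. Circles are library 1, triangles library 2 and the line is the mean of both. JUN and DUSP4 are higher in both derivatives than in MKN45, SPRY2 is low in CEAR alone, and DUSP6 overlaps across all lines.

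Levels are given in CPM, a gene's counts relative to the library total after scaling of the totals (TMM). Library totals ran from 39657353 to 57964246 counts, so 1 count is 0.0177 to 0.0255 CPM. Per kilobase of annotated exon, averaged over the 6 libraries, JUN stood highest of the 10 at 46.4 CPM per kilobase. DUSP4 followed at 21.0 and ETV4 at 19.9 CPM per kilobase. DUSP6, ETV5 and SPRY4 lay between 11.7 and 14.6, and SPRY2, ETV1 and SPRED1 between 6.13 and 8.88 CPM per kilobase. DUSP5 was the scarcest at 1.40 CPM per kilobase, with 42 to 81 counts in the libraries of CEAR and MKN45 and 214 and 461 in those of HER2R.

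Of 8 epithelial markers, the general ones EPCAM, KRT8, KRT18, KRT19 and CDH1 were high in every library, with KRT8 at 4228 to 7699 CPM. The 3 gastric ones were lower and uneven. TFF1 had 7.24 and 66.7 CPM in HER2R, 5.16 and 32.1 CPM in CEAR, and 10.1 and 174 CPM in MKN45. TFF2 had 0.0255 and 0.714 CPM in HER2R, 1.78 and 14.6 CPM in CEAR, and 0.177 and 3.30 CPM in MKN45. Both were higher in library 2 of each line. CLDN18 had 2.83 and 2.35 CPM in HER2R, 46.9 and 30.8 CPM in CEAR, and 2.09 and 2.59 CPM in MKN45. The sum of the 8 ran from 11890 to 15580 CPM in HER2R, 8311 to 10010 CPM in CEAR and 10480 to 12790 CPM in MKN45. Of these markers, CLDN18 was higher in CEAR than in MKN45 (log2 fold change 4.06, edgeR adjusted p = 0.00242). In HER2R against CEAR, CLDN18 was lower (-3.91, edgeR adjusted p = 0.00233) and EPCAM higher (0.79, edgeR adjusted p = 0.0327). Their part in the results was not tested. None of the T cell, monocyte or endothelial markers passed the filter. The 6 T cell markers in the table summed to at most 0.357 CPM in HER2R, 0.180 CPM in CEAR and 0.159 CPM in MKN45, with CD3D and CD2 at 0 in every library. Monocyte and endothelial markers each summed to at most 0.255 CPM. The 6 fibroblast markers summed to 7.67 and 3.55 CPM in HER2R, 1.81 and 1.15 CPM in CEAR and 1.88 and 0.978 CPM in MKN45. COL1A1 had 7.44 and 3.55 CPM of that in HER2R, 1.69 and 1.10 CPM in CEAR, and 1.68 and 0.591 CPM in MKN45. COL3A1 and DCN were at 0, and the part of these markers in the results was not tested.

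DUSP4 encodes a nuclear phosphatase of ERK and other MAP kinases (chromosome 8, 29333064 to 29350668 on GRCh38). It had 206 and 253 CPM in HER2R, 136 and 127 CPM in CEAR, and 103 and 90.6 CPM in MKN45. The 3 lines stood in that order with no overlap between any of them. DUSP4 was 2.37-fold higher in HER2R than in MKN45 (log2 fold change 1.25, SE 0.153, edgeR adjusted p = 0.00815) and 1.74-fold higher than in CEAR (0.80, SE 0.152, edgeR adjusted p = 0.0243). The step between CEAR and MKN45, a log2 fold change of 0.44, did not pass (SE 0.151, edgeR adjusted p = 0.143), and it did with the replicate block, in which library number enters the fit (edgeR adjusted p = 0.0391, alternatives from 0.0391 to 0.395). The call against MKN45 ended without HER2R library 2 (log2 fold change 1.09, edgeR adjusted p = 0.0600) and without MKN45 library 2 (1.16, 0.0519), with alternatives ranging over 4.89e-10 to 0.0600. The call against CEAR ended without any 1 library of the derivatives (edgeR adjusted p = 0.0719 and 0.128 without HER2R library 1 and 2, 0.0853 and 0.112 without CEAR library 1 and 2, range 0.000166 to 0.128).

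DUSP5 is a nuclear phosphatase specific to ERK (chromosome 10, 110497838 to 110511544). It had 5.45 and 11.8 CPM in HER2R, 1.20 and 0.944 CPM in CEAR, and 0.744 and 1.84 CPM in MKN45. Both HER2R libraries lay above the other 4, and CEAR lay within the range of MKN45. DUSP5 was 6.83-fold higher in HER2R than in MKN45 (log2 fold change 2.77, SE 0.538, edgeR adjusted p = 0.0285) and 8.01-fold higher than in CEAR (3.0, SE 0.558, edgeR adjusted p = 0.0234). This was the largest fold change among the 10 genes in either comparison, from the gene with the lowest counts and with library 2 above library 1 by 1.04 in HER2R and by 0.91 in MKN45 on the log2(CPM + 0.5) scale. CEAR against MKN45 gave -0.23 (SE 0.639, edgeR adjusted p = 0.878). The call in HER2R against MKN45 ended without HER2R library 1 (log2 fold change 3.22, edgeR adjusted p = 0.0654), HER2R library 2 (2.11, 0.142), MKN45 library 1 (2.22, 0.0968) or MKN45 library 2 (3.53, 0.0589), with alternatives ranging over 5.98e-05 to 0.142. The call against CEAR ended without HER2R library 1 (3.45, edgeR adjusted p = 0.0590), HER2R library 2 (2.34, 0.113), CEAR library 1 (3.18, 0.0771) or CEAR library 2 (2.83, 0.0997), with alternatives ranging over 9.34e-06 to 0.113.

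DUSP6 is the cytoplasmic phosphatase of ERK that is most often read as a marker of its activity (chromosome 12, 89347232 to 89353271). It had 61.5 and 76.3 CPM in HER2R, 74.4 and 55.6 CPM in CEAR, and 90.1 and 48.6 CPM in MKN45. The MKN45 libraries enclosed all others. HER2R against MKN45 gave a log2 fold change of -0.01 (SE 0.306, edgeR adjusted p = 0.988). CEAR against MKN45 gave -0.09 (SE 0.306, edgeR adjusted p = 0.897), and HER2R against CEAR 0.08 (SE 0.306, edgeR adjusted p = 0.877). By library number the ratio to MKN45 pointed both ways, at -0.55 for number 1 and 0.65 for number 2 in HER2R, on the log2(CPM + 0.5) scale. DUSP6 thus had a spread between libraries of 1 line that was wider than any difference between lines.

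SPRY2 and SPRY4 encode Sprouty proteins, which are induced by growth factors and dampen signals from receptor tyrosine kinases to RAS and RAF. SPRY2 (chromosome 13, 80335976 to 80340951) had 39.9 and 35.9 CPM in HER2R, 8.67 and 7.89 CPM in CEAR, and 45.2 and 24.2 CPM in MKN45. It was low in both CEAR libraries, and HER2R lay within the range of MKN45. SPRY2 was 4.20-fold lower in CEAR than in MKN45 (log2 fold change -2.07, SE 0.305, edgeR adjusted p = 0.0167) and 4.58-fold higher in HER2R than in CEAR (2.20, SE 0.306, edgeR adjusted p = 0.0120). HER2R against MKN45 gave 0.13 (SE 0.286, edgeR adjusted p = 0.807). The call in CEAR against MKN45 ended without CEAR library 1 (log2 fold change -2.14, edgeR adjusted p = 0.0692), without CEAR library 2 (-2.00, 0.0804) and in a fit of those 2 lines alone (-2.07, 0.0501), with alternatives ranging over 1.60e-08 to 0.0804. The call in HER2R against CEAR ended without HER2R library 1 (edgeR adjusted p = 0.0725), HER2R library 2 (0.0742) or CEAR library 2 (0.0578), with alternatives ranging over 1.10e-09 to 0.0742, while its log2 fold change stayed between 2.12 and 2.27.

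The promoter of SPRY2 is shown because this gene had the largest fall of the 10. The stretch below, from RefSeq on GRCh38.p14, lies at chr13:80341243-80341288 on the minus strand, 162 to 117 bases before the RefSeq start. Capitals mark the core letters CCGGAA bound by ETS factors, through which ERK is known to act. These letters were in 17.2% of all promoters searched, and their part in the level of SPRY2 was not tested.
SPRY2: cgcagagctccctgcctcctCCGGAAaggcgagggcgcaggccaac

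SPRY4 (chromosome 5, 142310427 to 142326455) had 105 and 105 CPM in HER2R, 63.6 and 53.0 CPM in CEAR, and 81.2 and 54.0 CPM in MKN45. Both HER2R libraries lay above the other 4, and those of CEAR and MKN45 overlapped. SPRY4 was higher in HER2R than in CEAR (log2 fold change 0.85, SE 0.212, edgeR adjusted p = 0.0458). That call ended without HER2R library 1 (0.164), HER2R library 2 (0.175), CEAR library 1 (0.104) or CEAR library 2 (0.178), with library size alone (0.0540) and with no filter on low counts (0.0719), with alternatives ranging over 0.00239 to 0.178 in adjusted p. HER2R against MKN45 gave 0.64 and did not pass (SE 0.211, edgeR adjusted p = 0.107, range 0.00833 to 0.294), though it did with the replicate block (0.00833) and in DESeq2 (0.0495). CEAR against MKN45 gave -0.21 (SE 0.211, edgeR adjusted p = 0.613).

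SPRED1 encodes a membrane-bound relative of the Sprouty proteins that brings the RAS inhibitor neurofibromin to RAS (chromosome 15, 38252326 to 38357249). It had 62.6 and 61.9 CPM in HER2R, 49.1 and 45.3 CPM in CEAR, and 46.1 and 38.6 CPM in MKN45. HER2R stood above both other lines, and CEAR overlapped MKN45. The log2 fold change of 0.56 in HER2R against MKN45 fell just short of the threshold (SE 0.142, edgeR adjusted p = 0.0573, range 0.00575 to 0.217). With the replicate block it passed (edgeR adjusted p = 0.00575). HER2R against CEAR gave 0.40 and did not pass (edgeR adjusted p = 0.109), though it did with the block (0.0205, range 0.0205 to 0.350). In DESeq2 the first of these passed as well (adjusted p = 0.0104). CEAR against MKN45 gave 0.16 (SE 0.142, edgeR adjusted p = 0.573).

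ETV1, ETV4 and ETV5 make up the PEA3 group of ETS factors, activators that work downstream of receptor kinases and ERK and are repressed by the protein Capicua (CIC). Of the 3, ETV1 alone was called outside the alternative fits, and differences between the 3 genes were not tested. ETV1 (chromosome 7, 13891228 to 13991425) had 38.5 and 35.5 CPM in HER2R, 74.9 and 50.4 CPM in CEAR, and 92.8 and 72.4 CPM in MKN45. Both HER2R libraries were the lowest of the 6, and CEAR overlapped MKN45. ETV1 was 2.23-fold lower in HER2R than in MKN45 (log2 fold change -1.16, SE 0.225, edgeR adjusted p = 0.0285). The call ended without HER2R library 1 (edgeR adjusted p = 0.148), HER2R library 2 (0.160), MKN45 library 1 (0.0989) or MKN45 library 2 (0.0624), with alternatives ranging over 0.000169 to 0.160, with log2 fold changes between -1.32 and -0.97. HER2R against CEAR gave -0.76 and did not pass (SE 0.224, edgeR adjusted p = 0.0698, range 0.00308 to 0.261), though it did with the replicate block (0.00308) and in DESeq2 (0.0212). CEAR against MKN45 gave -0.40 (SE 0.221, edgeR adjusted p = 0.339, range 0.0422 to 0.777) and passed with the block alone (0.0422).

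A promoter of ETV1, the 1 gene of the 10 called lower in HER2R, is shown for 151 to 103 bases before its RefSeq start, at chr7:13991528-13991576 on the minus strand (RefSeq, GRCh38.p14). ETV1 has several RefSeq starts, and the promoter shown is the only one of them that held both motifs marked. The ETS core was also found in others. Capitals mark the ETS core CCGGAA and the octamer TGAATGGA, a form of the sequence known to be bound by Capicua.
ETV1: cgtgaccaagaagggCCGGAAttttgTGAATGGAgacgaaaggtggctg

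ETV4 (chromosome 17, 43527844 to 43579620) had 101 and 69.2 CPM in HER2R, 95.6 and 50.1 CPM in CEAR, and 71.2 and 44.1 CPM in MKN45. Library 2 was lower than library 1 in each line, and all lines overlapped. The log2 fold change was 0.56 in HER2R against MKN45 (SE 0.370, edgeR adjusted p = 0.371, range 0.00756 to 0.799), 0.34 in CEAR against MKN45 (SE 0.370, edgeR adjusted p = 0.652) and 0.22 between the derivatives (SE 0.369, edgeR adjusted p = 0.720). Within library numbers, HER2R was above MKN45 by 0.50 for number 1 and 0.64 for number 2 on the log2(CPM + 0.5) scale, and with the replicate block that comparison passed (edgeR adjusted p = 0.00756). The helicase gene DHX8 overlaps ETV4 on the opposite strand with 2462 to 3916 counts. The libraries keep strand, but whether the counting used it is not given, and DHX8 itself had a log2 fold change of 0.20 in HER2R against MKN45 (edgeR adjusted p = 0.492).

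ETV5 (chromosome 3, 186046308 to 186110318) had 79.0 and 80.1 CPM in HER2R, 95.2 and 66.6 CPM in CEAR, and 91.0 and 62.4 CPM in MKN45. The HER2R libraries lay inside the range of both other lines. Its log2 fold change was 0.05 in HER2R against MKN45 (SE 0.236, edgeR adjusted p = 0.907). The corresponding value was 0.08 for CEAR against MKN45 (SE 0.236, edgeR adjusted p = 0.893) and -0.02 for HER2R against CEAR (SE 0.236, edgeR adjusted p = 0.958). Like DUSP6, it varied more between the libraries of MKN45 and of CEAR than between lines.

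JUN (chromosome 1, 58780788 to 58784327, a gene of 1 exon) had 212 and 242 CPM in HER2R, 168 and 194 CPM in CEAR, and 84.8 and 84.6 CPM in MKN45. The lines did not overlap, with HER2R highest, CEAR next and MKN45 lowest. JUN was 2.68-fold higher in HER2R than in MKN45 (log2 fold change 1.42, SE 0.140, edgeR adjusted p = 0.00428). It was 2.13-fold higher in CEAR than in MKN45 (1.09, SE 0.139, edgeR adjusted p = 0.0115). It was the only one of the 10 genes called higher in both derivatives. The HER2R call held in all 14 alternative fits, with adjusted p at most 0.0432. The CEAR call ended without CEAR library 2 (log2 fold change 0.98, edgeR adjusted p = 0.0607), MKN45 library 1 (1.10, 0.0547) or MKN45 library 2 (1.09, 0.0594), with alternatives ranging over 1.63e-09 to 0.0607. HER2R against CEAR gave 0.33 and did not pass (SE 0.138, edgeR adjusted p = 0.157, range 0.0363 to 0.503), though it did with the replicate block (0.0363).

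JUN is known to regulate its own transcription through a pair of AP-1 variants in its promoter, and these sites are shown since JUN rose in both derivatives. They lie on the minus strand at chr1:58784216-58784243 and chr1:58784097-58784124 (RefSeq, GRCh38.p14). Capitals mark the far site TTACCTCA, which starts 186 bases before the RefSeq start, and the near site TGACATCA, which starts 67 bases before it. The GENCODE coordinates given above start JUN further upstream than this RefSeq start. By those coordinates, both stretches lie inside the exon of JUN.
JUN far site: cagcggagcaTTACCTCAtcccgtgagc
JUN near site: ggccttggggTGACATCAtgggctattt

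RefSeq promoters, from 250 bases before to 50 after a start, were matched for 6 of the 10 genes and searched on both strands. The shares are over single promoters. A gene with several promoters, such as ETV1, was counted if any of them matched, so the shares are not a like measure for it. The far JUN letters occurred in 0.715% and the near JUN letters in 2.61% of all 35116 promoters, and among the 6 genes in JUN alone. The ETS core CCGGAA was in 17.2% of all promoters and in those of SPRY2 and ETV1. The longer ETS form CCGGAAGT, which contains that core, was in 4.14% of all and in none of the 6. The Capicua octamer TGAATGGA was in 1.03% of all and in ETV1, and its other form TGAATGAA in 1.65% and in none. Neither the AP-1 letters TGANTCA (7.71%) nor the cyclic AMP response element TGACGTCA (1.85%) was found in the 6. These are matches of letters and were not tested as binding sites.

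**Figure D2:**
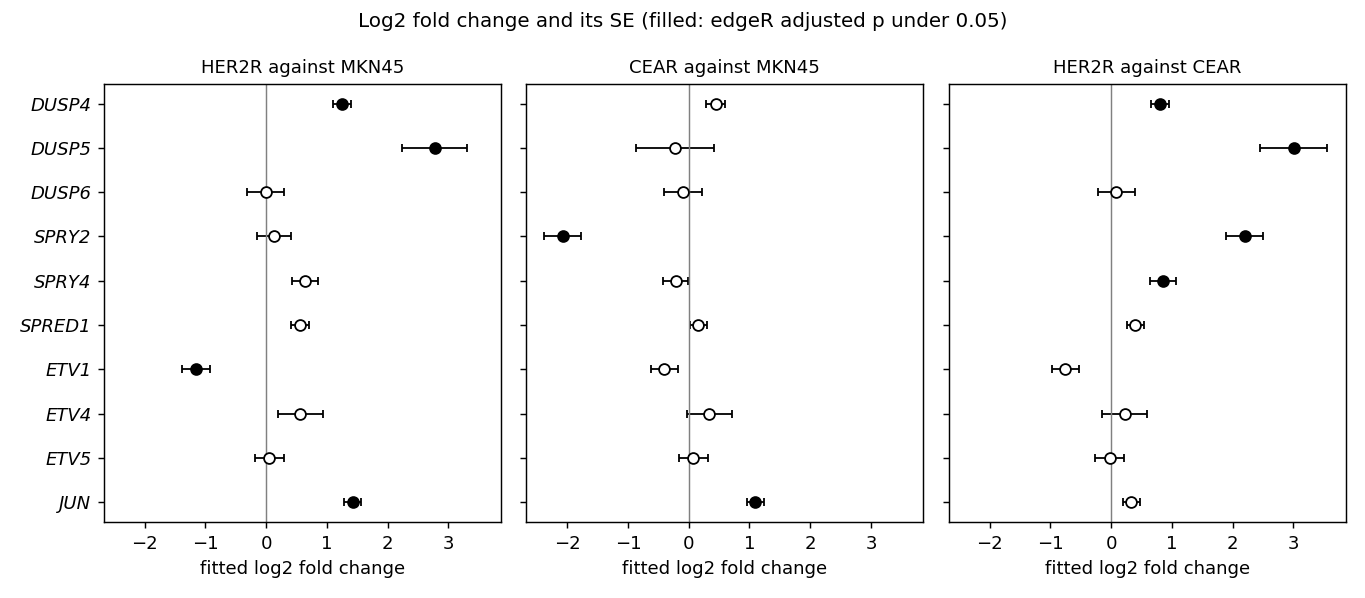
Fitted log2 fold change (horizontal axis) of each gene in the 3 comparisons, with its SE as the bar. Filled points have an edgeR adjusted p under 0.05. DUSP5 reaches 2.77 and 3.0 where HER2R is the upper line, and SPRY2 falls to -2.07 in CEAR against MKN45.

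Counted together, 3 of the 10 genes rose and 1 fell in HER2R against MKN45, where 9.74% of all tested genes were called, 4.89% higher and 4.85% lower. With the replicate block the count was 6 higher and 1 lower, SPRY4, SPRED1 and ETV4 being added, in a fit that called 33.7% of all genes, 16.2% higher and 17.5% lower. The median log2 fold change of the 10 was 0.56, against -0.02 over all tested genes. An unadjusted p under 0.05 was found for 6 of the 10, beside 28.6% of all genes. DESeq2 called 5 higher and 1 lower, beside 18.9% of all genes. In CEAR against MKN45, 1 rose and 1 fell, where 6.19% of all genes were called, 2.57% higher and 3.62% lower. The block, which called 25.8% of all genes there, added DUSP4 as higher and ETV1 as lower, and the median of the 10 was -0.01, against -0.0002 over all genes. An unadjusted p under 0.05 was found for 3 of the 10, beside 23.3% of all genes. DESeq2, which called 14% of all genes there, made the same member calls as the main fit. In HER2R against CEAR, 4 of the 10 were higher and 0 lower, where 14.1% of all genes were called, 7.32% higher and 6.75% lower. At an unadjusted p under 0.05 there were 6 of the 10, ETV1 being lower, beside 32% of all genes. DESeq2 called 4 higher and ETV1 lower, beside 22.9% of all genes. The block called 6 higher and 1 lower, beside 38.2% of all genes, with SPRED1 and JUN added as higher and ETV1 as lower. The libraries of the lines did not overlap for 6 of the 10 genes in HER2R against MKN45, 3 in CEAR against MKN45 and 7 in HER2R against CEAR, beside 57.1%, 50.6% and 61.4% of all tested genes. By direction, 5 of the 10 were higher and 1 lower without overlap in HER2R against MKN45 (27.8% and 29.3% of all genes), 2 higher and 1 lower in CEAR against MKN45 (25% and 25.6%), and 6 higher and 1 lower in HER2R against CEAR (31% and 30.3%). The totals for HER2R against MKN45 and for HER2R against CEAR are near that background. The comparisons share libraries, so their counts are not independent.

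Differences between the libraries of 1 line were part of the picture. In MKN45, 9 of the 10 genes were lower in library 2 than in library 1, with a median difference of -0.45 on the log2(CPM + 0.5) scale, where 49.4% of all tested genes were lower in library 2. In CEAR 9 of the 10 were lower, with a median of -0.25, beside 48.8% of all tested genes. In HER2R 5 of the 10 were lower, with a median of 0.01, beside 47.4% of all tested genes. SPRY2, SPRY4, SPRED1, ETV1 and ETV4 were lower in library 2 in all 3 lines. SPRY4 and SPRED1 differed by less than 0.02 in HER2R, and JUN by less than 0.01 in MKN45. In the fit with library number as a term, ETV4 was the only one of the 10 whose number effect passed (log2 difference -0.72, edgeR adjusted p = 0.00389), where 16.7% of all genes did. What the number stands for is not given in the labels.

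**Figure D3:**
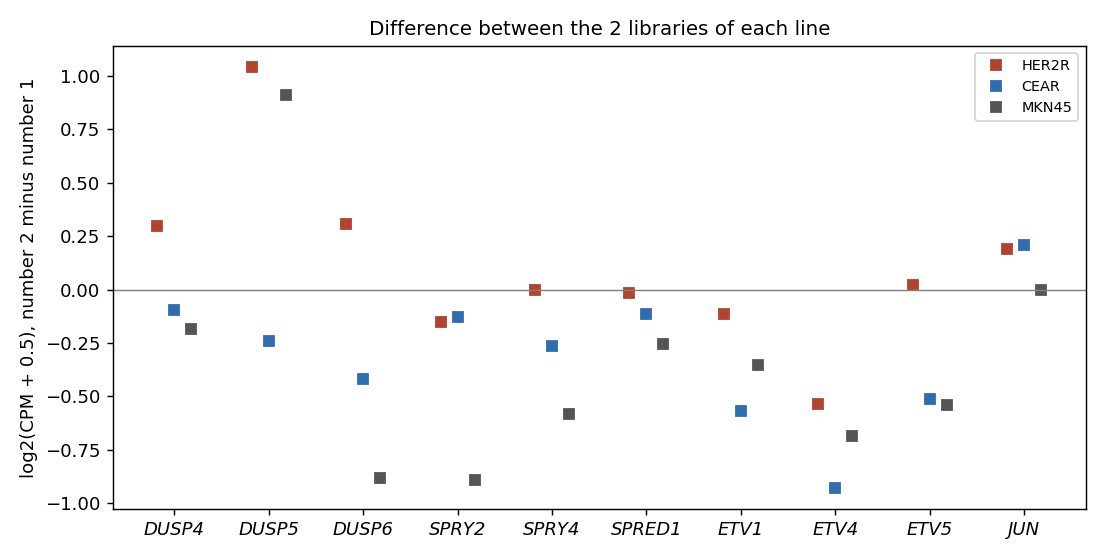
Difference between library 2 and library 1 of each line, in log2(CPM + 0.5), for the 10 genes, with HER2R, CEAR and MKN45 as squares from left to right within each gene. Most squares of CEAR and MKN45 lie below 0, and those of HER2R lie on both sides.

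Across the 6 libraries, the levels of some members tracked one another. Pearson's r on log2(CPM + 0.5) was 0.958 for DUSP4 and SPRED1, 0.894 for DUSP6 and ETV5, and 0.880 for DUSP4 and JUN. ETV1 ran opposite to DUSP4, at -0.878, and to JUN, at -0.859. The libraries fall into 3 lines, so these values describe a pattern over lines and carry no test. Among all tested genes with a mean of 5 CPM or more, those whose pattern was most like that of a called member were CHST3, SLC25A25 and AKAP12 for DUSP4 (r from 0.992 to 0.995) and CAP1, AFMID and GTF2B for DUSP5 (0.992 to 0.993). They were GAPDH, CD9 and B4GALT1 for SPRY2 (0.994 to 0.998) and TOR4A, BCL2L12 and MAP2K3 for SPRY4 (0.994 to 0.998). They were MTMR2, ANAPC7 and ZNF23 for ETV1 (0.990 to 0.992) and ANKRD49, HOMER3 and TERC for JUN (0.992 to 0.995). Between 98 and 162 genes had an r above 0.95 with each of these members, and with 6 libraries such values are common.

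Around the 10 genes, 91 others of the pathway were listed in 9 groups, of which 88 were tested. In HER2R against MKN45, 8 of them rose and 5 fell, or 14.8% beside 9.74% of all genes. In CEAR against MKN45, 1 rose and 4 fell, or 5.68% beside 6.19%. In HER2R against CEAR, 11 were higher and 7 lower, or 20.5% beside 14.1%. The replicate block gave 42, 25 and 42 calls in these comparisons, while it called 33.7%, 25.8% and 38.2% of all genes. Leaving out 1 library gave 0 to 11, 1 and 0 to 16, with the lowest count in HER2R against MKN45 without HER2R library 2 and 0 in HER2R against CEAR without either HER2R library.

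**Figure D4:**
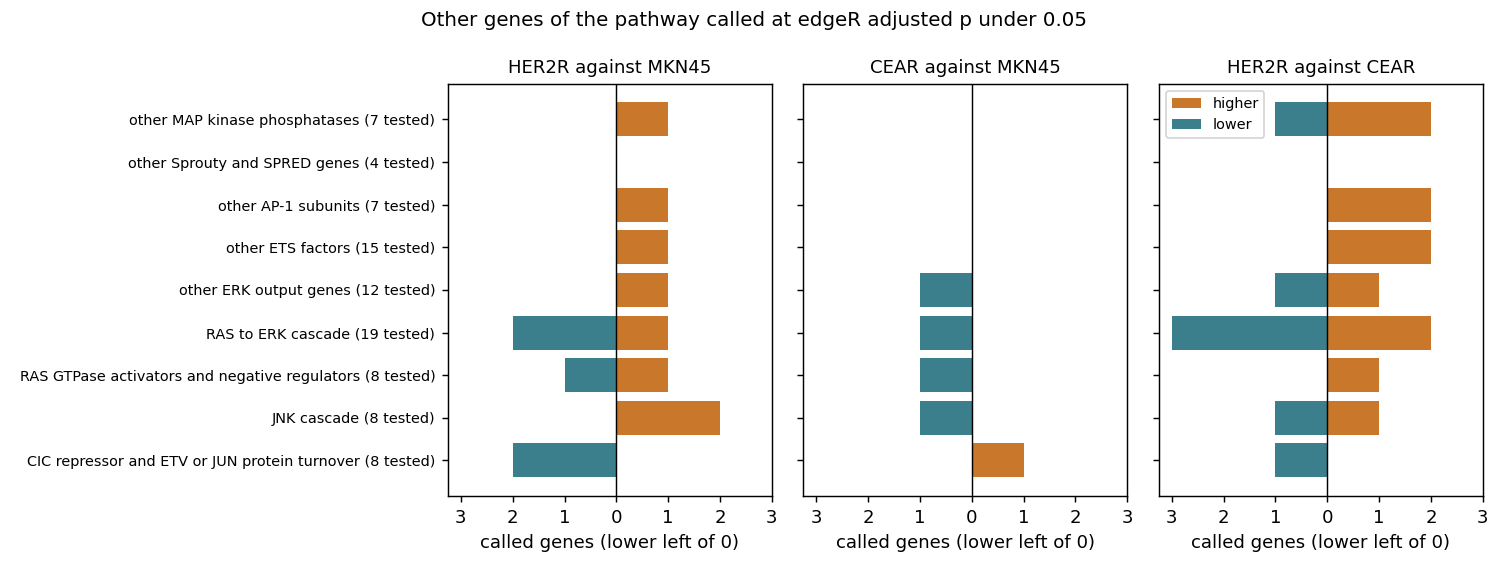
Number of genes called in each of 9 lists of other pathway genes (horizontal axis, higher to the right of 0 and lower to the left) in the 3 comparisons. The cascade from RAS to ERK has 1 higher and 2 lower genes in HER2R against MKN45, and no list has more than 3 genes called in 1 direction.

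Of 19 genes of the cascade from RAS to ERK, 1 rose and 2 fell in HER2R against MKN45, with a median log2 fold change of -0.15. MAPK3, which encodes the kinase ERK1, had 21.6 and 21.5 CPM in HER2R, 35.4 and 51.6 CPM in CEAR, and 82.4 and 108 CPM in MKN45. The lines did not overlap, and both derivatives were lower than MKN45. The log2 fold change of HER2R was -2.15 (SE 0.229, edgeR adjusted p = 0.00540), and that of CEAR was -1.13 (SE 0.221, edgeR adjusted p = 0.0364). The HER2R call ended without HER2R library 1 (edgeR adjusted p = 0.0612) or HER2R library 2 (0.0600), with alternatives ranging over 7.28e-15 to 0.0612. The CEAR call held without CEAR library 2 but ended without HER2R library 1 (0.0855), HER2R library 2 (0.0841), CEAR library 1 (0.122), MKN45 library 1 (0.0599) or MKN45 library 2 (0.135). It also ended with no filter on low counts (0.0527) and with the 2 lines fitted alone (0.0834), with alternatives ranging over 0.000199 to 0.135 in adjusted p, its log2 fold change lying between -1.43 and -0.88. BRAF, a RAF kinase, fell in HER2R (-0.79, edgeR adjusted p = 0.0264), and SOS1, an exchange factor that loads RAS with GTP, rose (0.97, edgeR adjusted p = 0.0366). Both calls ended without any 1 library of HER2R or of MKN45 (adjusted p over all alternatives 8.32e-05 to 0.151 for BRAF and 0.000536 to 0.181 for SOS1), and that of SOS1 also with no filter on low counts (0.0572).

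Among genes that hold the pathway back, DUSP1, an inducible phosphatase that acts mainly on JNK and p38, averaged 24.5 ± 1.73 CPM in HER2R and 9.77 ± 0.393 CPM in MKN45 (SD, n = 2 each; log2 fold change 1.32, edgeR adjusted p = 0.0127). It was the 1 gene called of 7 other MAP kinase phosphatases, and the call ended without any 1 library of HER2R or of MKN45 (adjusted p over all alternatives 4.03e-08 to 0.0950). ERRFI1, an inhibitor of the EGF receptor, rose in HER2R (434 ± 151 CPM, against 118 ± 35.6 CPM in MKN45, SD, n = 2 each; 1.87, edgeR adjusted p = 0.0175), a call that ended without HER2R library 2 (0.0862) or MKN45 library 2 (0.0724), with alternatives ranging over 5.05e-08 to 0.0862. PEBP1, an inhibitor of the cascade, fell there (-0.84, edgeR adjusted p = 0.0171), and this call ended without any 1 library of HER2R or of MKN45 (1.88e-06 to 0.122). In CEAR, RASAL2, a RAS GTPase activator, fell (30.8 ± 1.07 CPM, against 65.0 ± 3.87 CPM in MKN45, SD, n = 2 each; -1.08, edgeR adjusted p = 0.00988), and 7 others of its list did not pass. That call ended without CEAR library 1 (0.0513) or CEAR library 2 (0.0651), the adjusted p over all alternatives ranging from 2.88e-10 to 0.0651. The 4 other Sprouty and SPRED genes, SPRY1, SPRY3, SPRED2 and SPRED3, did not pass, the lowest edgeR adjusted p being 0.111 for SPRED3 in HER2R against CEAR (0.74).

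Among the partners of JUN, ATF3, a stress-induced factor that dimerises with it, rose in HER2R against MKN45 (11.5 ± 3.02 CPM, against 2.01 ± 0.507 CPM, SD, n = 2 each; log2 fold change 2.53, edgeR adjusted p = 0.0127), the 1 gene called of 7 other AP-1 subunits tested. The call ended without HER2R library 1 (0.0849), HER2R library 2 (0.0553) or MKN45 library 1 (0.0608), the adjusted p over all alternatives ranging from 2.45e-08 to 0.0849. FOS did not pass, with a log2 fold change of 0.62 in HER2R (edgeR adjusted p = 0.160) and one of 0.86 in CEAR (edgeR adjusted p = 0.0950). Of 8 JNK cascade genes, MAPK8, the kinase JNK1 (0.82, edgeR adjusted p = 0.0360), and MAP3K5, an upstream stress kinase (0.79, edgeR adjusted p = 0.04996), rose in HER2R. MAP2K7, a kinase that activates JNK, fell in CEAR (-1.05, edgeR adjusted p = 0.0320). Of 15 other ETS factors tested, only ELK4, a partner of serum response factor, rose in HER2R against MKN45 (0.60, edgeR adjusted p = 0.0398), and the others did not pass. The calls of MAP3K5, ELK4 and MAP2K7 ended without any 1 of the 6 libraries (adjusted p over all alternatives up to 0.222, 0.182 and 0.138), and that of MAPK8 without any 1 library of HER2R or of MKN45 (up to 0.167). Fitting the 2 lines alone ended those of MAP3K5 (0.0734), ELK4 (0.0545) and MAP2K7 (0.0706), no filter on low counts those of MAP3K5 (0.0639), ELK4 (0.0639) and MAPK8 (0.0528), and limma-voom that of MAP3K5 (0.0513).

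Of 12 other genes that ERK induces, 1 rose in HER2R and 1 fell in CEAR. EPHA4, an ephrin receptor, rose in HER2R (1.40, edgeR adjusted p = 0.0301), a call that ended without any 1 library of HER2R or of MKN45 (0.000219 to 0.161). LIF, a secreted cytokine, averaged 63.3 ± 0.0917 CPM in HER2R, 17.4 ± 4.74 CPM in CEAR and 42.1 ± 9.22 CPM in MKN45 (SD, n = 2 each). It fell in CEAR against MKN45 (-1.28, edgeR adjusted p = 0.0314) and was higher in HER2R than in CEAR (1.87, edgeR adjusted p = 0.00942). The first call held only without CEAR library 1 among the fits lacking 1 library (adjusted p over all alternatives 7.11e-05 to 0.115), and the second ended without HER2R library 1 (0.0653) or HER2R library 2 (0.0730), with alternatives ranging over 4.57e-10 to 0.0730. EGR1, an immediate early factor, went the other way between the derivatives, at 21.5 ± 1.53 CPM in HER2R and 52.7 ± 13.3 CPM in CEAR (SD, n = 2 each; -1.29, edgeR adjusted p = 0.0358). PHLDA1, another gene of ERK output, averaged 761 ± 67.6 CPM in HER2R and 232 ± 125 CPM in MKN45 (SD, n = 2 each) and fell short of the threshold (1.71, edgeR adjusted p = 0.0504), as one of 11 in the list that did not pass. Of 8 genes for Capicua, its partners and the ubiquitin ligase parts that break down ETV and JUN proteins, ATXN1L, a partner of Capicua, fell in HER2R (-0.59, edgeR adjusted p = 0.0310), as did CUL4A, a ligase scaffold (-0.81, edgeR adjusted p = 0.0271). ATXN1, a related partner, rose in CEAR (0.82, edgeR adjusted p = 0.0212). The calls of ATXN1L and ATXN1 ended without any 1 of the 6 libraries (adjusted p over all alternatives up to 0.173 and 0.102), and that of CUL4A without any 1 library of HER2R or of MKN45 (up to 0.157). Fitting the 2 lines alone ended those of ATXN1L (0.0584), ATXN1 (0.0584) and, in CEAR against MKN45, LIF (0.0812).

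The derivatives also differed from each other in the wider pathway. In the cascade from RAS to ERK, MAP2K2 (the kinase MEK2, log2 fold change 0.61, edgeR adjusted p = 0.0272) and the exchange factor SOS1 (0.82, edgeR adjusted p = 0.0467) were higher in HER2R than in CEAR. MAPK3 (-1.02, edgeR adjusted p = 0.0332) and MAP2K1, the kinase MEK1 (-0.52, edgeR adjusted p = 0.0447), were lower. Among the phosphatases, DUSP1 (1.05, edgeR adjusted p = 0.0208) and DUSP16 (0.67, edgeR adjusted p = 0.0354) were higher in HER2R and DUSP8 lower (-0.88, edgeR adjusted p = 0.0353), all 3 known to act on JNK or p38. The AP-1 subunits ATF3 (1.94, edgeR adjusted p = 0.0215) and FOSB (1.82, edgeR adjusted p = 0.0270) and the ETS factors ETS1 (0.69, edgeR adjusted p = 0.0304) and ETS2 (0.85, edgeR adjusted p = 0.0345) were higher in HER2R. So were MAP2K7 (1.14, edgeR adjusted p = 0.0195) and RASAL2 (0.57, edgeR adjusted p = 0.0359), while ATF2, a partner of JUN, and ATXN1L were lower (-0.63 and -0.57, edgeR adjusted p = 0.0356 and 0.0299). Each of the 18 calls of this comparison, LIF and EGR1 included, ended without HER2R library 1 and without HER2R library 2. Their highest adjusted p over all alternatives lay between 0.0730 for LIF and 0.205 for MAP2K1.

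Over all 36 calls among the other pathway genes, 62 of 216 fits without 1 library and 260 of 288 other alternatives kept the call, and none turned its direction.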

How the data were processed

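Total RNA from HER2R, CEAR and MKN45 was sequenced, with 2 libraries each. Per the labels' protocols, RNA came from RNeasy columns and libraries from a stranded total RNA kit with depletion of ribosomal RNA. The submitters' processing notes name GRCh38 and limma without a version. Which aligner, counter and annotation were used is not given in these sources. The deposited table holds raw counts for each symbol. Of 29744 symbols, 14958 passed filterByExpr and entered a test in edgeR 4.0.16 (R 4.3.3), using TMM factors and a quasi-likelihood model with 1 term per line over all 6 libraries (legacy method off). Each SE was taken as the size of the log2 fold change divided by the root of its F. Exon lengths and coordinates are from GENCODE 29, promoters from RefSeq.

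Of 129 list symbols 127 matched directly, 1 by a RefSeq synonym and 1 not at all. The members and lists were chosen with earlier results of these data known. Named from the lists were at most 4 called genes per direction, and some items are not reported here. FOS and PHLDA1, and the JUN promoter motifs, were added after the data were seen. Alternatives were the replicate block, other scalings, no filter, DESeq2 1.42.0, limma-voom (limma 3.58.1), the compared lines alone and each library left out; the legacy method was added after seeing the data. The difference between library numbers correlated across lines over all tested genes (r = 0.466 for HER2R and CEAR, 0.447 for HER2R and MKN45, 0.629 for CEAR and MKN45). Library number was used as a pairing in the replicate block, an alternative. The fit that gives the calls, with 1 term per line, does not use it. Counts of the libraries of a line differed by far more than sampling noise (chi-square per degree of freedom 62.8 to 133).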

Additional observations from a re-analysis of the deposited data

Results flagged for a closer look

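The effects of 4 genes differed between the derivatives in the direct comparison of HER2R with CEAR, which equals the difference of their changes against MKN45. In edgeR's quasi-likelihood test, the log2 fold change of HER2R over CEAR was 0.80 for DUSP4 (edgeR adjusted p = 0.0243), 3.0 for DUSP5 (edgeR adjusted p = 0.0234), 2.20 for SPRY2 (edgeR adjusted p = 0.0120) and 0.85 for SPRY4 (edgeR adjusted p = 0.0458). In this comparison 7.32% of all tested genes were called higher. Both HER2R libraries were above both CEAR libraries for each of the 4 genes, as for 31% of all tested genes. The 4 were picked by this same comparison, so the lack of overlap adds no support. The alternative fits in which these calls ended are given above for each gene. For DUSP4 and DUSP5 the change against MKN45 passed in HER2R, for SPRY2 that change passed in CEAR, and for SPRY4 in neither.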

How the results depend on the processing

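Of 420 gene values of the members under the alternatives, 357 kept their direction and their side of the threshold, 33 lost the call, 11 gained one and 19, none of them called, changed sign. With the replicate block, the members called were 7 in HER2R against MKN45, 4 in CEAR against MKN45 and 7 in HER2R against CEAR, the other pathway genes 42, 25 and 42, and all genes 5040, 3861 and 5717. No call among the members was lost with the block. DESeq2 called 2820, 2098 and 3432 genes in all, and 24 and 14 other pathway genes in the 2 comparisons with MKN45. In CEAR and MKN45 fitted alone, the calls were 1 member, 1 other pathway gene and 400 genes. Without 1 library, HER2R against MKN45 gave 1 to 4 members, 0 to 11 other pathway genes and 173 to 1151 genes, CEAR against MKN45 gave 0 to 2, 1 and 254 to 412, and HER2R against CEAR gave 0 to 4, 0 to 16 and 97 to 1853. A line left with 1 library was assumed to vary like the others.

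Sign changes were as follows, and the cause was not tested. In HER2R against MKN45, DUSP6 was 0.055 with the block and 0.050 in limma-voom, and without 1 library DUSP6 ranged over -0.39 to 0.51, SPRY2 over -0.25 to 0.65 and ETV5 over -0.19 to 0.35. In CEAR against MKN45, the ranges without 1 library were -0.78 to 0.52 for DUSP5, -0.47 to 0.42 for DUSP6, -0.48 to 0.12 for SPRY4, -0.20 to 0.73 for ETV4 and -0.20 to 0.38 for ETV5. In HER2R against CEAR, ETV5 was 0.0068 with the block, and the ranges were -0.11 to 0.30 for DUSP6, -0.17 to 0.76 for ETV4 and -0.26 to 0.25 for ETV5. Scalings moved the median of all genes by under 0.1. DUSP5 rests on 42 to 81 counts per library in CEAR and MKN45.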
